A study of Mus musculus with 12 samples.

Results

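Myl4, Myl7, Sln, Bmp10 and Pam are genes used as markers of atrial rather than ventricular heart muscle. Their levels were followed in each of 12 mouse heart libraries as a gauge of how much atrial tissue a sample held. They were taken by symbol from the deposited table of gene expression, in which each of the 5 symbols names 1 row of 55487. The labels give the tissue as heart and name no chamber. Sln and Bmp10 were at or near the limit of detection in all 12 libraries, and Myl7 was so in 11 of 12. The remaining library, Sham+B12 3, from sham-operated mice given vitamin B12, held the highest Myl7 and Myl4 of all. Pam was abundant in all 12 libraries, at 103.74 to 196.52 FPKM. That includes I/R 1, I/R 2 and Sham 3, where Myl7, Sln and Bmp10 were listed at 0.

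The mice were wild type in every group, and the sources used here give no strain, age or sex. Each of 4 groups had 3 libraries. I/R+B12 mice drank vitamin B12 at 50 mg/L for 7 days, at about 4 mL of water per day, and then underwent ischemia/reperfusion (I/R), in which the left anterior descending coronary artery was tied for 45 min and released for 24 h. I/R mice had the same injury on normal water. Sham+B12 mice had B12 and an operation in which the artery was not tied. Sham mice had that operation on normal water. The comparisons address whether B12 alters I/R injury. The labels do not say whether the libraries of a group came from separate mice, so p-values measure only the spread between these libraries, which may be technical.

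The atria and ventricles of the adult heart use different members of the same protein families. Myl7 and Myl4 encode the regulatory and the essential light chain of atrial myosin, in the places that Myl2 and Myl3 fill in the ventricle. Sln encodes sarcolipin, an inhibitor of the calcium pump SERCA in atrial muscle, where Pln (phospholamban) is the main ventricular inhibitor. Bmp10 encodes a secreted signal of the bone morphogenetic protein (BMP) family that the adult heart makes in the right atrium and that acts on endothelial cells through the receptor Acvrl1. Pam encodes an enzyme that amidates peptide hormones and is a main membrane protein of the atrial granules that store atrial natriuretic peptide, the product of Nppa.

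On the mouse build mm10, with GENCODE M21 annotation, Myl4 (ENSMUSG00000061086) lies at chr11:104550663-104595753 on the plus strand and Myl7 (ENSMUSG00000020469) at chr11:5896637-5898782 on the minus strand. Sln (ENSMUSG00000042045) lies at chr9:53850164-53854560 and Bmp10 (ENSMUSG00000030046) at chr6:87428994-87437677, both on the plus strand, and Pam (ENSMUSG00000026335) at chr1:97795114-98095646 on the minus strand. All 5 are protein-coding, and each value is a sum over the whole gene. Myl7, Sln and Bmp10 have 1 annotated transcript each, Myl4 has 8 and Pam 15. An exon of Myl4 overlaps the antisense gene Gm22000 and an exon of Pam overlaps B230216N24Rik, which had at most 0.18 FPKM each. Exons of Nppa, Myl2, Myl3 and Pln, named beside the markers, also overlap other genes. No strand setting is given in the sources used here, so reads of overlapping genes cannot be told apart.

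The stretches of 250 bases before the transcription start of Myl7, Bmp10 and Nppa are shown because Nppa RNA was abundant in every library, while Bmp10 was near 0 in all 12 and Myl7 in 11 of them. They are read 5′ to 3′ on the gene's strand, from RefSeq on GRCm38.p6, and 4 of the 5 marker genes had an entry. Myl7 is at chr11:5898783-5899032 (minus strand), Bmp10 at chr6:87428744-87428993 (plus strand) and Nppa at chr4:148000472-148000721 (plus strand). Capitals mark matches to 1 of 4 short motifs of cardiac transcription factors.
Myl7 promoter: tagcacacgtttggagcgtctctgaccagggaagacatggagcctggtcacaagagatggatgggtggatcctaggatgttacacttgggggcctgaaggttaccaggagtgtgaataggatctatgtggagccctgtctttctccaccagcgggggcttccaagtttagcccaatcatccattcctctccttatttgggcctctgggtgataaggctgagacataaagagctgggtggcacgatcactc
Bmp10 promoter: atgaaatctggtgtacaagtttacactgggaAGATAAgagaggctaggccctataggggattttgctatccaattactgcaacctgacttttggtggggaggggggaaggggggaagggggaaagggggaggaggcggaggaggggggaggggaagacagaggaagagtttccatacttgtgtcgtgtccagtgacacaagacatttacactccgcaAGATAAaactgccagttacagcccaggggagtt
Nppa promoter: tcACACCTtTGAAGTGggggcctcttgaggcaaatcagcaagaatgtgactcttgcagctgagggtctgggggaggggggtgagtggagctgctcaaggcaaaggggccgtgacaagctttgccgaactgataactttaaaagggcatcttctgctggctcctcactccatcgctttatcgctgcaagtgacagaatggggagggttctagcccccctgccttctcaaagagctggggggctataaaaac
Both strands were searched for the GATA factor motif AGATAA and the T-box motif AGGTGT. The other motifs were that of NKX2-5, TNAAGTG, and the nuclear receptor element AGGTCA. No matches overlapped in these 3 stretches. Bmp10 held AGATAA at 219 and 33 bases before its start. Nppa held AGGTGT on the other strand at 248 bases and TNAAGTG at 241 bases before its start. Myl7 held none of the 4 motifs in these exact letters, and neither did the stretches before Myl4 and Pam. Variant letters were not searched, such as the TGATAA in the Myl7 and Nppa stretches. Of 32851 such stretches in the table, 3281 held the GATA motif, 3887 the T-box motif (11.8%), 3305 the NKX2-5 motif (10.1%) and 4607 the nuclear receptor element (14.0%), so that single matches of this kind are frequent. A match describes letters only and was not tested as a binding site.

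The values are FPKM, fragments divided by transcript length and library depth, which compare genes per unit of length. Depth was estimated from the steps between low values at 24.4 to 28.8 M fragments per library, and 11490 to 12612 genes reached 1 FPKM. The ventricular genes were high throughout: Myl2 ranged between 10367 and 17101 FPKM and Myl3 between 6367 and 9284 FPKM over the 12 libraries. None of the 12 ventricular genes and 14 general myocyte genes listed was under 1 FPKM in every library. Skeletal muscle was low, with 8 of 10 genes under 1 FPKM in every library, and of 8 genes of the sinoatrial node 4 were under 1 FPKM everywhere, with Isl1 at 0 throughout. In 2 libraries the injury genes went against their labels. The library labelled I/R 3 had 3.04 FPKM of Lcn2, a secreted protein of injured tissue and neutrophils, against 278.64 and 447.19 FPKM in I/R 1 and 2, and the library labelled Sham 3 had 210.48 FPKM, against 5.01 and 3.20 FPKM in Sham 1 and 2. Labels were kept as given. In bulk tissue, fewer cells of a type and less RNA per cell cannot be told apart.

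**Figure D1:**
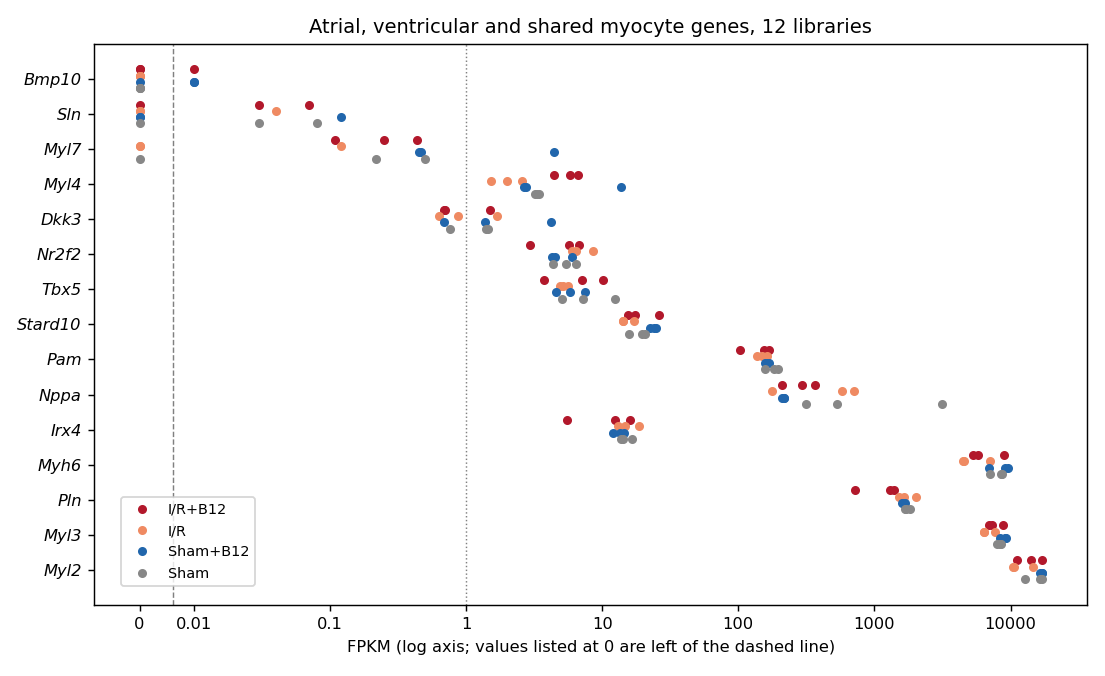
Level of each gene in FPKM (horizontal log axis) in the 12 libraries, 1 point per library, coloured by group. Values listed at 0 stand left of the dashed line, and the dotted line marks 1 FPKM. Bmp10, Sln and Myl7 lie left of 1 FPKM except for 1 Sham+B12 library with 4.43 FPKM of Myl7, Pam and Nppa lie above 100 FPKM, and the ventricular light chains Myl3 and Myl2 lie at 6367 FPKM or more.

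Myl7, the atrial regulatory light chain, separated 1 library from the other 11. It had 0.25, 0.11 and 0.44 FPKM in I/R+B12, 0, 0 and 0.12 FPKM in I/R, 0.47, 0.45 and 4.43 FPKM in Sham+B12, and 0.22, 0.50 and 0 FPKM in Sham. Sham+B12 3 was the highest, 9.63 times the mean of Sham+B12 1 and 2, and the other 11 libraries lay between 0 and 0.50 FPKM. With 1 short transcript of 590 nt, 1 fragment is worth 0.107 to 0.127 FPKM, so the values stand for an estimated 2, 1 and 4 fragments in I/R+B12, 0, 0 and 1 fragments in I/R, 4, 4 and 35 in Sham+B12, and 2, 4 and 0 in Sham. The 35 fragments of Sham+B12 3 have an exact 95% Poisson interval of 24.4 to 48.7, and the 4 fragments of Sham+B12 1 one of 1.09 to 10.2. Sham+B12 3 was singled out as the highest library, so these intervals do not test a difference. These intervals cover counting error only, since reads amplified without molecular identifiers are not independent molecules. A count of 0 is taken to allow up to 3 fragments, a one-sided limit, or 0.320 to 0.381 FPKM depending on the library; the two-sided interval of a count of 0 reaches 3.69 fragments.

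Set against its ventricular counterpart, Myl7 was a trace. It reached 0.0270% of the level of Myl2 in Sham+B12 3 and 0% to 0.00304% in the other 11 libraries. Myl2 itself had 16424 FPKM or more in all 3 Sham+B12 libraries, so the higher ratio of Sham+B12 3 was in its Myl7.

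Myl4, the atrial essential light chain, was the only light chain marker at 1 FPKM or more in every library. Fragments were not estimated for it, since its 8 annotated transcripts range from 486 to 3273 nt. It had 4.44, 6.66 and 5.83 FPKM in I/R+B12, 2.01, 1.53 and 2.56 FPKM in I/R, 2.66, 2.77 and 13.80 FPKM in Sham+B12, and 3.32, 3.20 and 3.41 FPKM in Sham. Sham+B12 3 was again the highest library, the 3 I/R+B12 libraries came next, and the 3 I/R libraries were the lowest of the 12. Relative to Myl3, the ventricular essential light chain, Myl4 was at 0.149% in Sham+B12 3 and at 0.0238% to 0.0915% in the other 11 libraries. In Sham+B12 3 the level exceeded the mean of Sham+B12 1 and 2 by 11.1 FPKM for Myl4 and by 3.97 FPKM for Myl7.

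Sln, the atrial inhibitor of SERCA, was hardly detected. It had 0, 0.07 and 0.03 FPKM in I/R+B12, 0, 0 and 0.04 FPKM in I/R, 0, 0 and 0.12 FPKM in Sham+B12, and 0.03, 0.08 and 0 FPKM in Sham. These are an estimated 10 fragments in all 12 libraries together, 3 of them in Sham+B12 3, and 6 libraries were at 0. A count of 0 itself allows up to 3 fragments (0.0994 to 0.116 FPKM), so no order of the groups can be read from Sln. Pln, the ventricular inhibitor, had 722 to 2028 FPKM, and Sln reached at most 0.00969% of Pln, in I/R+B12 2.

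Bmp10, the atrial signal, was at 0 FPKM in 9 of 12 libraries. It was listed at 0, 0.01 and 0 FPKM in I/R+B12, at 0 in all 3 I/R libraries, at 0.01, 0 and 0.01 FPKM in Sham+B12, and at 0 in all 3 Sham libraries. Each value of 0.01 FPKM stands for an estimated 1 fragment on a transcript of 4490 nt, and a count of 0 allows up to 0.0247 to 0.0291 FPKM. Bmp10 was thus not distinguishable from 0 in any library at this depth.

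**Figure D2:**
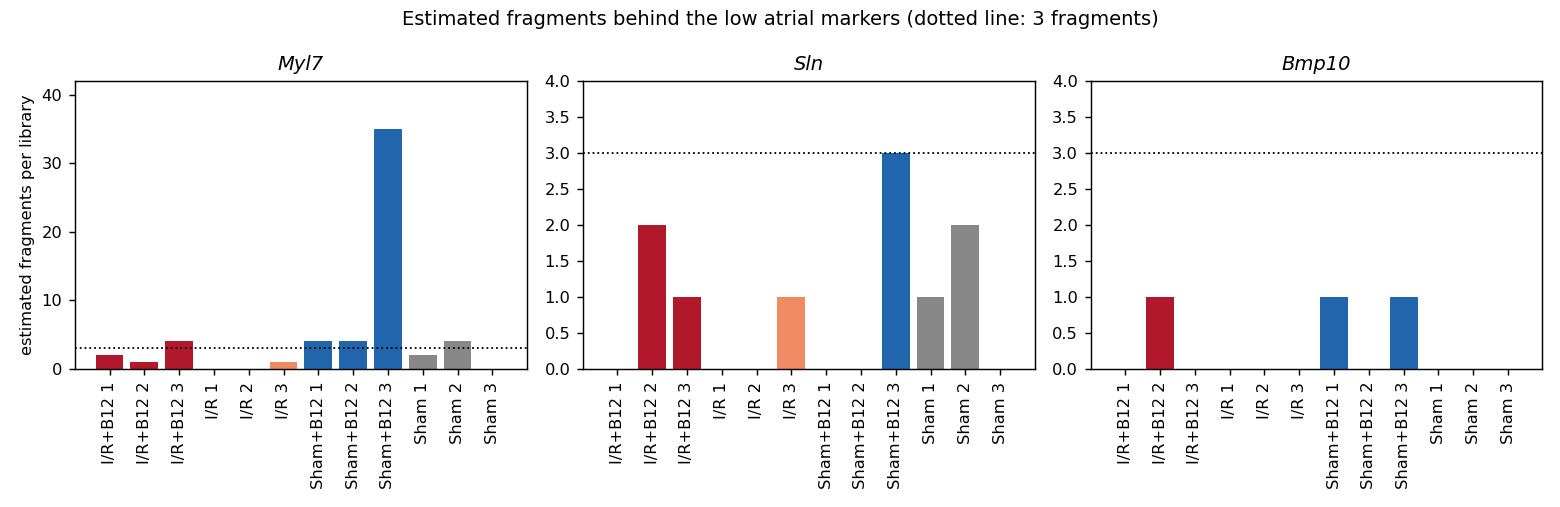
Estimated fragments (vertical axis) behind the values of Myl7, Sln and Bmp10 in each library, coloured by group, with a dotted line at the 3 fragments that a count of 0 allows. Only Myl7 in Sham+B12 3, at 35 fragments, stands far above that line, and Myl7 in the other 11 libraries has at most 4.

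Pam behaved unlike the other 4 markers: it was abundant in every library. It had 167.68, 103.74 and 155.62 FPKM in I/R+B12, 149.57, 137.05 and 161.62 FPKM in I/R, 168.07, 156.90 and 163.84 FPKM in Sham+B12, and 182.60, 157.13 and 196.52 FPKM in Sham. I/R+B12 2 was the lowest library and Sham 3 the highest, and every pair of groups overlapped. In Sham+B12 3, where Myl7 and Myl4 peaked, Pam exceeded the mean of the other Sham+B12 libraries by only 1.36 FPKM. The library with the most Myl7 was the fifth-highest for Pam.

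**Figure D3:**
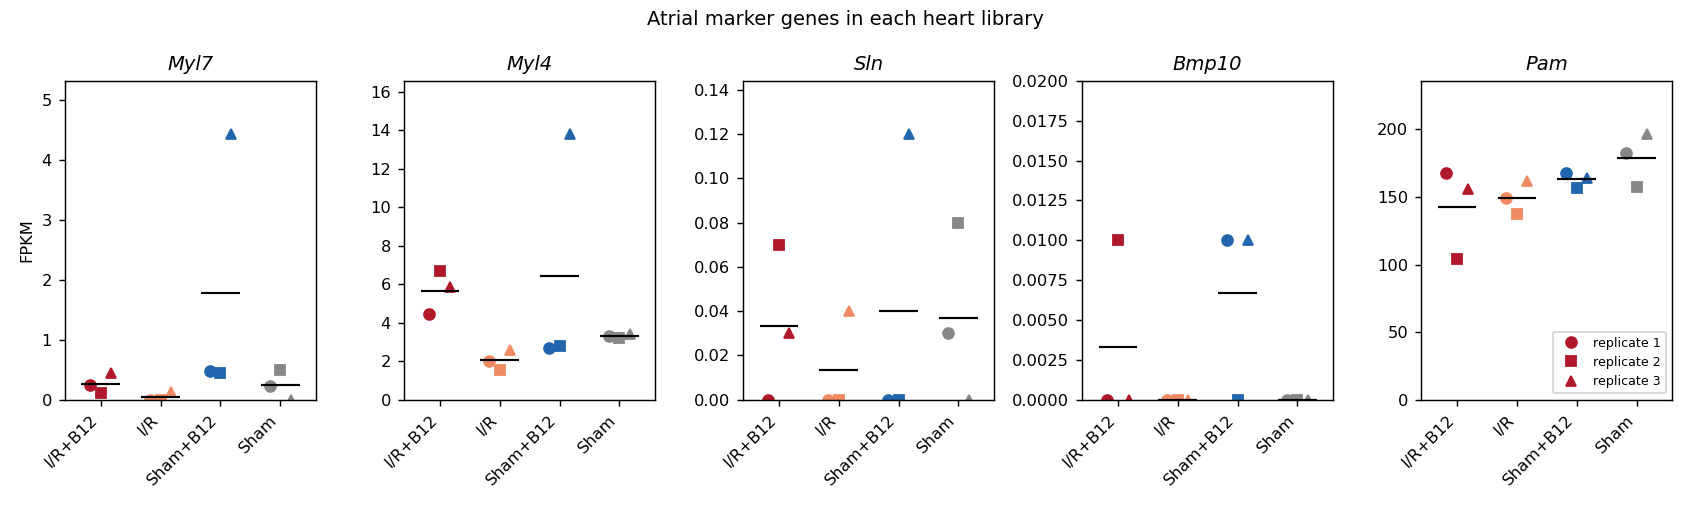
FPKM of the 5 markers (vertical axes, a separate linear scale for each gene, all starting at 0) by group, with 1 symbol per library, a shape per replicate number and a line at the mean of 3 libraries. Sham+B12 3 (blue triangle) is the highest library for Myl7 and Myl4, and for Sln at only an estimated 3 fragments. The 3 I/R libraries are the lowest for Myl4, and Pam lies between 103.74 and 196.52 FPKM.

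Over the 12 libraries Myl4 and Myl7 had a Pearson correlation of 0.77 on the log2(FPKM + 1) scale (permutation p = 0.0331, adjusted p = 0.0993 over the 3 pairs computed) and a Spearman rho of 0.38 (permutation p = 0.223, adjusted p = 0.602). Without Sham+B12 3 and I/R+B12 2, which lay farthest from the median of Myl4, r was 0.50, so that the relation leaned on those 2 libraries. Myl4 and Pam had r of -0.11 (permutation p = 0.634, adjusted p = 0.648) and rho of 0.17 (0.602 for both), with r of 0.44 without the same 2 libraries. Myl7 and Pam had r of 0.14 (permutation p = 0.648, adjusted p = 0.648) and rho of 0.24 (0.453 and 0.602), with r of 0.13 without Sham+B12 3 and I/R 1. No pair passed the correction.

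Nppa, the hormone gene often read as an atrial marker, was not highest where Myl7 was. It had 364.17, 293.33 and 210.64 FPKM in I/R+B12, 580.58, 178.10 and 706.68 FPKM in I/R, 217.59, 215.59 and 210.68 FPKM in Sham+B12, and 311.79, 529.89 and 3156.53 FPKM in Sham. The library labelled Sham 3 held the most Nppa by far and listed Myl7, Sln and Bmp10 at 0, with 3.41 FPKM of Myl4. Sham+B12 3, the library with the most Myl7, had the third-lowest Nppa of the 12 and was 5.91 FPKM below the mean of the other Sham+B12 libraries. Nppb, the ventricular natriuretic peptide gene, was also high in the library labelled Sham 3, at 752.95 FPKM against 118.55 and 168.77 FPKM in Sham 1 and 2.

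**Figure D4:**
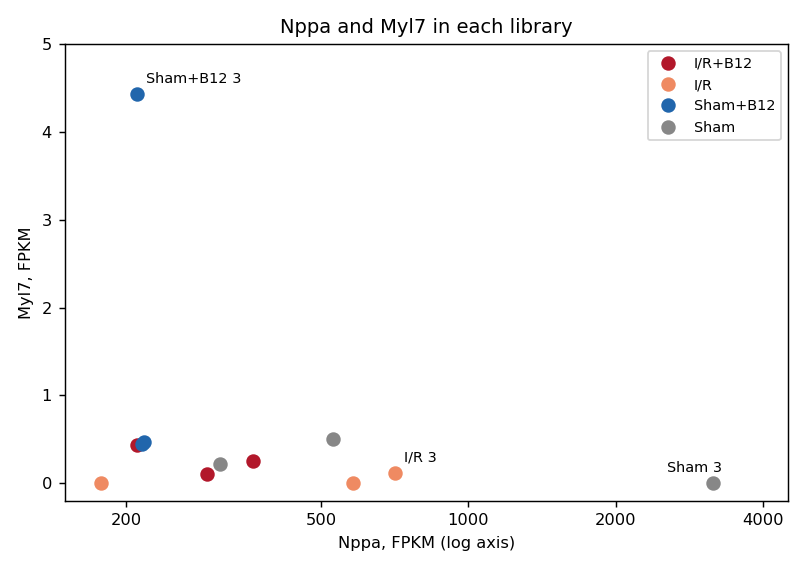
Nppa (horizontal log axis, FPKM) against Myl7 (vertical axis, FPKM) in the 12 libraries, coloured by group. The library with the most Nppa, labelled Sham 3 (3156.53 FPKM), has Myl7 at 0, and the library with the most Myl7, Sham+B12 3 (4.43 FPKM), has 210.68 FPKM of Nppa.

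Of 16 further genes used as atrial myocyte markers, 2 had their highest value in Sham+B12 3. Dkk3, a secreted glycoprotein, had 4.23 FPKM there and 0.63 to 1.69 FPKM in the other 11 libraries, and Cacna2d2, a calcium channel subunit, had 0.69 and 0.09 to 0.52 FPKM. These were singled out after their values were seen. The transcription factors Tbx5 (5.85 FPKM) and Nr2f2 (4.51 FPKM) ranked sixth and ninth in Sham+B12 3. The ranges of these genes elsewhere were 3.73 to 12.35 FPKM and 2.97 to 8.56 FPKM. Summed over the 16 genes, the level of Sham+B12 3 was the highest of its group, at 808.14 FPKM against a lowest of 747.7 FPKM. It was lower than the 3980.8 FPKM of the library labelled Sham 3. Most of the sum was Clu and Nppa, so it says little of the other genes. Clu had 440.08 FPKM in Sham+B12 3, against 399.25 and 390.63 FPKM in Sham+B12 1 and 2, and Nppa had 210.68 FPKM, the lowest of that group.

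Markers of other cells also peaked in Sham+B12 3. Cidec, a lipid droplet protein of fat cells, had 1.09 FPKM there and at most 0.49 FPKM in the other 11 libraries, and Plin1, another, had 0.30 and at most 0.19 FPKM. Cacna1g, a calcium channel of the sinoatrial node list, had 4.93 FPKM against 1.44 to 4.41 FPKM elsewhere. The ventricular genes Scn4b (17.71 FPKM) and Myl3 (9283.88 FPKM) and the general myocyte gene Myh6 (9547.55 FPKM) were highest there too, unlike the other genes of their lists. Scn4b, Myl3 and Myh6 stood at 1.21, 1.06 and 1.19 times the mean of Sham+B12 1 and 2, where Myl4 stood at 5.08 times and Cidec at 3.25 times. These genes were singled out after their values were seen, and the part of these cells in the Myl7 and Myl4 values was not tested.

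Only Myl4 and Pam reached the filter for testing, 1 FPKM in at least 3 libraries, which 13001 genes passed. They were tested with limma on log2(FPKM + 1), with p-values adjusted by Benjamini-Hochberg over the 13001 genes and a call at an adjusted p under 0.05. Differences on this scale understate those of low genes. Neither was called in any of the 5 comparisons below, 4 of which called no gene at all. Where groups are said below not to overlap, the share of all genes whose groups did the same was not counted. Such a statement describes the libraries and does not set a gene apart from other genes.

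In I/R against Sham hearts, Myl4 averaged 2.03 ± 0.52 FPKM in I/R and 3.31 ± 0.11 FPKM in Sham (SD, n = 3 each), and all 3 I/R libraries were below all 3 Sham libraries. limma gave a log2 difference of -0.52 (SE 0.43) with an adjusted p of 0.620. An exact permutation test of the FPKM values gave the smallest p that 3 against 3 libraries allow, 0.1. Pam averaged 149 ± 12.3 FPKM in I/R and 179 ± 20.0 FPKM in Sham (log2 difference -0.25, SE 0.17, limma adjusted p 0.540). Of 2 tested markers 0 were called, where 0% of all genes were (0 of 13001, with 1516 at an unadjusted p under 0.05). With library weights, Pam was called lower in I/R (-0.35, limma adjusted p 0.0151), in a fit that called 4411 genes. When Sham 3 and I/R 3 were both left out, the log2 difference was -0.63 for Myl4 and -0.24 for Pam, neither called (limma adjusted p 0.606 and 0.591).

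In I/R+B12 against I/R hearts, Myl4 averaged 5.64 ± 1.12 FPKM in I/R+B12 and 2.03 ± 0.52 FPKM in I/R (SD, n = 3 each). The groups did not overlap. The log2 difference was 1.13 (SE 0.43), with an unadjusted p of 0.0227 in limma and an adjusted p of 0.125, and the exact permutation p was again 0.1, the smallest possible. Across all genes 0% were called (0 of 13001), although 3711 had an unadjusted p under 0.05, and the median of all genes was -0.21. Without Sham+B12 3, which is in neither group but enters the shared estimate of spread, the difference kept its value with an SE of 0.18 and an unadjusted p of 6.9e-05 in limma, and the adjusted p was 0.125. With Sham 3 and I/R 3 both left out it was 1.25 (limma adjusted p 0.194). Pam averaged 142 ± 34.0 FPKM in I/R+B12 and 149 ± 12.3 FPKM in I/R (log2 difference -0.10, SE 0.17, limma adjusted p 0.725), and its sign turned without I/R+B12 2 (0.12). The 8 fibroblast genes listed summed to 371 to 449 FPKM in I/R+B12 and 778 to 826 FPKM in I/R, groups that did not overlap either, with 0 of 8 called and none at 0 in every library. The part of these cells in the Myl4 values was not tested.

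In Sham+B12 against Sham hearts, the Myl4 mean rested on 1 library. It was 6.41 ± 6.40 FPKM in Sham+B12 and 3.31 ± 0.11 FPKM in Sham (SD, n = 3 each), with a log2 difference of 0.45 (SE 0.43, limma adjusted p 0.999). Without Sham+B12 3 the difference was -0.21 (limma adjusted p 1). Pam averaged 163 ± 5.64 FPKM in Sham+B12 and 179 ± 20.0 FPKM in Sham (-0.13, SE 0.17, limma adjusted p 0.999). Here too 0% of genes were called (0 of 13001, with 220 at an unadjusted p under 0.05).

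In I/R+B12 against Sham+B12 hearts, 10.4% of genes were called (1352 of 13001) and 0 of the 2 tested markers. Myl4 averaged 5.64 ± 1.12 FPKM in I/R+B12 and 6.41 ± 6.40 FPKM in Sham+B12 (log2 difference 0.16, SE 0.43, limma adjusted p 0.822), so that the means on the linear scale and the log2 difference had opposite signs. Without Sham+B12 3 the log2 difference was 0.82 (SE 0.20, limma adjusted p 0.0931). In that fit no gene was called. Pam averaged 142 ± 34.0 FPKM in I/R+B12 and 163 ± 5.64 FPKM in Sham+B12 (-0.22, SE 0.17, limma adjusted p 0.378). Myl7, below the filter, averaged 0.267 FPKM in I/R+B12 and 1.78 FPKM in Sham+B12, and its groups did not overlap, by 0.01 FPKM between 0.44 in I/R+B12 3 and 0.45 in Sham+B12 2 (exact permutation p 0.1, the smallest possible). Both values are an estimated 4 fragments. Without the filter the log2 difference of Myl7 was -0.84 (SE 0.43, limma adjusted p 0.319), and with Sham+B12 3 also left out it was -0.21 (SE 0.16, limma adjusted p 0.586).

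The interaction subtracts the effect of I/R on normal water (I/R less Sham) from the effect under B12 (I/R+B12 less Sham+B12). It was 0.68 for Myl4 (SE 0.61, limma adjusted p 0.605) and 1.34 (SE 0.27, limma adjusted p 0.600) without Sham+B12 3. For Pam it was 0.03 (SE 0.24, limma adjusted p 0.961). In the interaction 0% of genes were called (0 of 13001, with 1595 at an unadjusted p under 0.05).

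**Figure D5:**
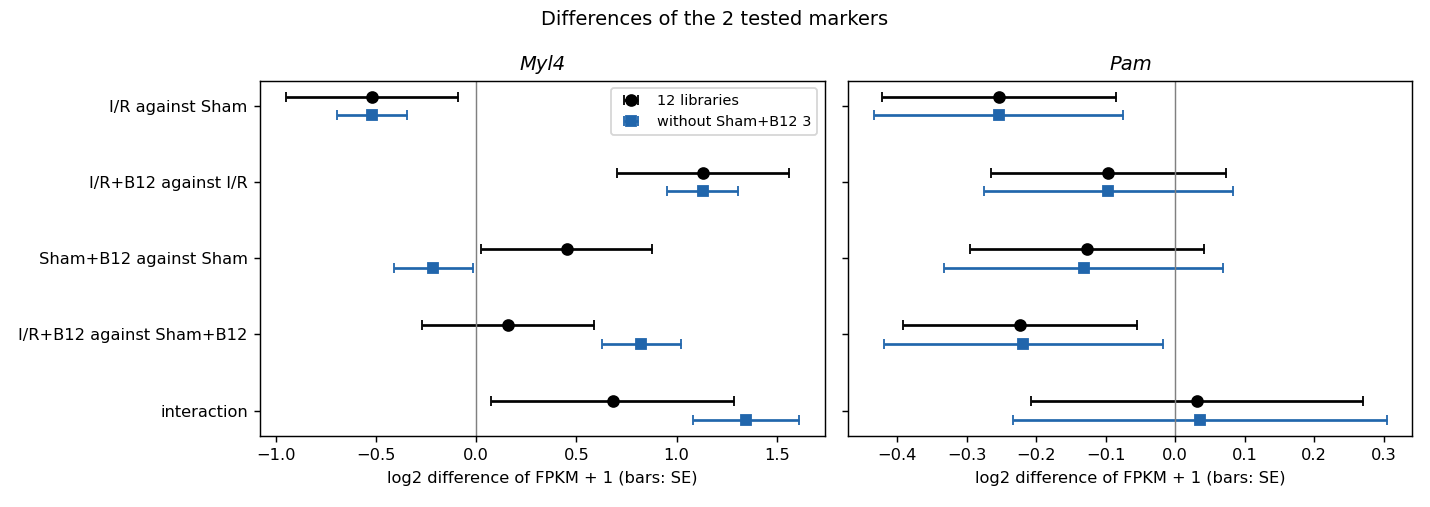
Log2 differences of Myl4 and Pam (horizontal axes, on the log2(FPKM + 1) scale; the 2 panels differ in scale) in the 5 comparisons, from limma with all 12 libraries (black circles) and without Sham+B12 3 (blue squares), with bars of 1 SE. For Myl4 the difference in Sham+B12 against Sham is 0.45 with and -0.21 without that library, and that in I/R+B12 against I/R is 1.13 in both fits.

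The genes around each marker were followed through lists of its partners, all read against the 10.4% of genes called in I/R+B12 against Sham+B12, since no gene of any list was called in the other 4 comparisons. The lists were chosen with earlier results of these data known, so a count above that share describes a list and does not test it. Of the receptors, signal carriers and targets of BMP10, 8 of 14 tested genes rose in I/R+B12 against Sham+B12 and 0 fell. Their median log2 difference was 0.57, against -0.02 over all genes. The count moved with single libraries while the median stayed between 0.52 and 0.60: it was 0 of 14 when Sham+B12 1 or Sham+B12 3 was left out, 1 when Sham+B12 2 was, and 2 when I/R+B12 2 was. Leaving out I/R+B12 1 gave 9 higher and 1 lower, where 1341 of 12906 genes were higher and 2492 lower. Over all genes the calls fell likewise, to 0 without Sham+B12 1 or Sham+B12 3, 32 without Sham+B12 2 and 49 without I/R+B12 2, so that every call of this comparison named below ends when Sham+B12 1 or Sham+B12 3 is left out. The BMP10 count was 2 when only the compared groups were fitted and 4 of 20 with no filter. Those fits called 241 of 13001 and 262 of 26986 genes. Between 12 and 13 of 14 differences were above 0 in each of the fits that tested all 14.

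Id1, a transcription regulator and an immediate target of BMP receptors, had 141.80, 146.17 and 118.35 FPKM in I/R+B12, against 61.46, 70.94 and 70.40 FPKM in Sham+B12 (log2 difference 0.99, SE 0.14, limma adjusted p 0.0155). Smad6, an inhibitor induced by the pathway, had 12.03, 13.84 and 17.65 FPKM in I/R+B12, against 5.57, 5.41 and 7.01 FPKM in Sham+B12 (1.14, SE 0.16, limma adjusted p 0.0155). The groups did not overlap for either gene. Id3, a relative of Id1, rose by 0.59 (limma adjusted p 0.0265) and the receptor Bmpr2 by 0.63 (0.0268). Id2, Smad4, Smad5 and Smad7 were the other 4 called. The 2 genes most tied to BMP10, singled out after their values were seen, were not among them: its receptor Acvrl1 had 33.89, 15.50 and 15.53 FPKM in I/R+B12, against 25.83, 26.27 and 24.07 FPKM in Sham+B12 (log2 difference -0.32, SE 0.25, limma adjusted p 0.395), and Gdf2, the closest related ligand, was at 0 to 0.04 FPKM in all 12 libraries, like Bmp10. I/R+B12 1 was the only one of its group above the Sham+B12 libraries for Acvrl1, and without it the gene was called lower (-0.68, SE 0.13, limma adjusted p 0.00579). Other BMP ligands act through the same targets. The 8 neutrophil genes summed to 106.8 to 2037 FPKM in I/R+B12 and 0.86 to 34.2 FPKM in Sham+B12, with 3 of 7 tested called higher. The 8 endothelial genes summed to 543 to 619 FPKM in I/R+B12 and 488 to 573 FPKM in Sham+B12, with 1 of 8 called, Pecam1, higher. No gene of either list was at 0 in every library, and the part of these cells in these and the following calls was not tested.

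Of the other myosin light chains and the enzymes that phosphorylate or dephosphorylate them, 0 of 13 tested genes were called in the comparisons as fitted above. In I/R+B12 against Sham+B12, 3 were called lower without I/R+B12 1, where 2492 of 12906 genes were lower. The cardiac light chain kinase Mylk3 had a log2 difference of -0.84 in I/R+B12 against Sham+B12 (limma adjusted p 0.0898) and of -0.92 in I/R+B12 against I/R (0.102). Over the light chain list the median in I/R+B12 against Sham+B12 was -0.20. Of the SERCA genes, 0 of 10 tested were called, and 1 was called lower without I/R+B12 1 or without I/R+B12 3. Over all genes 2492 of 12906 and 527 of 12945 were lower in those fits. Pln had -0.58 in I/R+B12 against Sham+B12 (limma adjusted p 0.0895) and -0.66 in I/R+B12 against I/R (0.0969). Its lowest library, at 722 FPKM, was I/R+B12 2, which was also the lowest for Pam.

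The list for Pam held peptide hormones and genes of their storage and processing. Of its 9 tested genes, 1 rose and 1 fell in I/R+B12 against Sham+B12. The 9 included the hormone genes Nppa, Nppb and Adm, and Pgrmc1. The granule genes Chga, Chgb, Scg2, Scg3 and Scg5 did not reach the filter. Furin, a protease that cuts prohormones, had 52.10, 49.75 and 56.04 FPKM in I/R+B12, against 31.62, 25.68 and 29.02 FPKM in Sham+B12 (0.85, SE 0.22, limma adjusted p 0.0378). Pcsk6, which in mice activates the enzyme that cuts the Nppa product, had 10.53, 11.38 and 17.68 FPKM in I/R+B12, against 38.50, 35.74 and 35.57 FPKM in Sham+B12 (-1.44, SE 0.38, limma adjusted p 0.0401). Neither gene's groups overlapped. Pcsk6 was also low in the library labelled Sham 3, at 12.97 FPKM against 41.83 and 37.32 FPKM in Sham 1 and 2.

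Among the lists of neighbouring cell types, 0 of 12 tested atrial genes beyond the 5 markers were called in the 5 comparisons as fitted above. In I/R+B12 against Sham+B12, 4 of 12 were called lower without I/R+B12 1, where 2492 of 12906 genes were lower. Library weights called 4 lower, where 1771 of 13001 genes were. Median-ratio scaling and quantile normalization called 1 each, where 901 and 927 of 13001 genes were lower. Kcna5, a potassium channel of atrial repolarisation, came nearest, at -0.77 in I/R+B12 against Sham+B12 (limma adjusted p 0.0663) and -0.77 in I/R+B12 against I/R (0.0988). Of the ventricular genes 1 of 12 fell in I/R+B12 against Sham+B12, Scn4b, a sodium channel subunit (-1.50, limma adjusted p 0.0357). Of the general myocyte genes 0 of 14 were called, against 3 lower without I/R+B12 3, where 527 of 12945 genes were lower. Of the sinoatrial node genes 1 of 4 tested rose, Tbx3, a transcription factor of conduction tissue, with 8.30, 5.58 and 4.86 FPKM in I/R+B12, against 2.58, 2.81 and 2.66 FPKM in Sham+B12 (0.95, SE 0.17, limma adjusted p 0.0211). The 1 tested gene of the epicardial list, Wt1, rose by 1.28 (limma adjusted p 0.0197).

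The genes whose pattern was most like that of Myl4, by Pearson r of log2(FPKM + 1) over the 12 libraries, were Rnu12 (0.85), Psmd9 (0.81), Nfatc2ip (0.74), Xrcc3 (0.72) and Synj2 (0.71). Rnu12, Psmd9 and Xrcc3 were, like Myl4, highest in Sham+B12 3. Over the 11 libraries without it, a choice made after seeing the data, the list was led by Snhg14 (0.88), Wnt11 (0.88), Rbm33 (0.88), Ppm1j (0.88) and Smad6 (0.87), and all 5 had their highest value in an I/R+B12 library. Of these, 4 were lowest in I/R 2, like Myl4, and Rbm33 was lowest in Sham+B12 2. Those nearest to Pam were Ascc1 (0.96), Gata4 (0.95), Calcoco1 (0.95), Mul1 (0.95) and Eral1 (0.94), all lowest in I/R+B12 2 and highest in the library labelled Sham 3. Gata4 encodes a cardiac transcription factor and had 20.1 to 49.5 FPKM. Points of 1 library share its depth and composition, and these likenesses are descriptions.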

How the data were processed

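Poly(A)-selected RNA of 12 mouse heart libraries was sequenced as paired reads, per the labels' protocols. The authors deposited FPKM per gene, and HISAT2, StringTie and mm10 are named in the submitters' processing notes, without versions. The annotation and strand setting are not given in the sources used here. The deposited group means were not used. Of the 55487 table IDs, 55227 were found in GENCODE M21.

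Depth was estimated from the whole-fragment steps of low FPKM of genes with 1 transcript of 700 to 1600 nt. The transcript length less 240 to 280 nt was used. This gave 24.4 to 28.8 M fragments, with 81.3% to 88.9% of values within 0.15 of a whole number. The transcripts of Myl7 (590 nt) and Bmp10 (4490 nt) lie outside that range of lengths. The estimates are not counts, and no count test was run.

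The test was limma 3.58.1 (R 4.3.3). With its variance trend, it was fitted to log2(FPKM + 1) of all 12 libraries with group means. Tests were two-sided. Correlations used 100000 permutations. Alternatives were pseudocounts of 0.1 and 0.5, no filter, a filter at 5 FPKM, median-ratio and quantile scaling, fits to the compared groups only, a robust trend or none, weights per library, the replicate number as a block, and libraries left out. The members and lists were chosen with earlier results of these data known. Named genes were all 5 markers, up to 4 called genes per list and comparison by smallest p, or up to 2 where none was called, their paralogs and partners, and the 5 genes most like each tested marker. Likeness without Sham+B12 3, the list counts under the alternatives, and the fits of Myl7 (no filter, without Sham+B12 3) and Acvrl1 (without I/R+B12 1) were added after the data were examined.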

Additional observations from a re-analysis of the deposited data

How the results depend on the processing

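The log2 differences of Myl4 and Pam were recomputed under 24 alternatives in each of 5 comparisons. No marker was called under any of them, except Pam in I/R against Sham with library weights, where 1 marker was called (-0.35, limma adjusted p 0.0151). That weighting had not fully converged. Signs turned, without a call, for Pam in I/R+B12 against I/R (0.15 with median-ratio scaling, 0.057 with library weights, 0.12 without I/R+B12 2; -0.23 to 0.12 over single libraries left out) and in the interaction (-0.10, -0.05, -0.03 and -0.04 without I/R+B12 1, I/R+B12 3, I/R 2 and Sham 3; -0.10 to 0.24 over single libraries left out). They also turned for Myl4 in Sham+B12 against Sham (-0.21 without Sham+B12 3, up to 0.79 without other single libraries) and in I/R+B12 against Sham+B12 (-0.33 with library weights, -0.18 and -0.16 without Sham+B12 1 and 2, 0.82 without Sham+B12 3), and the correlation of Myl4 and Pam was 0.44 without the 2 farthest libraries. The cause was not tested. Myl4 in I/R+B12 against I/R kept its sign throughout (1.01 to 1.44, limma adjusted p 0.0715 to 0.325), as did Myl4 in I/R against Sham (-0.72 to -0.40).

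Counts over all genes ranged from 0 to 4411 in I/R against Sham, 0 to 4409 in I/R+B12 against I/R, 0 to 3 in Sham+B12 against Sham, 0 to 3833 in I/R+B12 against Sham+B12 and 0 to 1840 in the interaction. In I/R+B12 against Sham+B12, 882 of 1352 calls were higher and 470 lower, against 864 and 927 with quantile normalization and 1017 and 901 with median-ratio scaling. The replicate numbers did not pair the libraries (mean r of 0.014 over 18 same-number pairs and -0.0087 over 36 others), and with the replicate block 0 markers were called in any comparison and 1057 genes in I/R+B12 against Sham+B12. In that comparison library weights gave 1 lower call each among the light chain, SERCA and general myocyte genes, quantile normalization gave 1 among the light chain genes, and leaving out Sham 3, alone or with I/R 3, gave 1 light chain gene higher. General myocyte genes had 1 lower call without I/R+B12 1, without I/R 3, or without both I/R 3 and Sham 3. Over all genes, lower calls numbered 1771 of 13001 with library weights and 2492 of 12906 without I/R+B12 1. They numbered 514 of 12906 without I/R 3 and 591 of 12851 without both I/R 3 and Sham 3. Higher calls numbered 907 of 12954 without Sham 3 and 1075 of 12851 without both. Calls of ventricular genes ranged from 0 to 3 lower, and those of peptide hormone genes from 0 to 1 higher and 0 to 2 lower. Quantile normalization called 3 ventricular genes lower, where 927 of 13001 genes were. Over all genes, the fits of this comparison called from 0 to 1341 higher and from 0 to 2492 lower, so these ranges do not set the 2 lists apart.

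Depth limits Sln and Bmp10, for which no difference was detectable, and Myl7 outside Sham+B12 3. With another pseudocount, 57 of 72 per-library log2 ratios to the ventricular counterpart moved by more than the replicate spread.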
